A study of Mus musculus with 16 samples.

Results

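The MYC and MAX network was described through 8 genes, *Myc*, *Mycl*, *Mycn*, *Max*, *Mxd1*, *Mxi1*, *Mxd4* and *Mga*, in chromatin accessibility data from mouse small cell lung cancer (SCLC). A peak was given to the network when the protein-coding start site nearest to its centre belonged to any of these genes. This took 133 of the 80367 peaks that the authors deposited as differing between non-neuroendocrine (non-NE) and neuroendocrine (NE) SCLC cells. Given the genes, peaks were taken by position only, but the genes themselves were chosen with earlier results of these data known.

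The cells came from *TKO*;*Hes1*GFP/+ mice, in which an adenovirus with Cre under the CMV promoter removes the floxed tumor suppressors *Rb*, *p53* and *p130* from lung cells, so both groups shared these deletions. GFP stands in for *Hes1*, a Notch target, at an allele of that gene. Pooled tumors of each mouse were sorted into non-NE cells, with high GFP (GFP-high), and NE cells without it (GFP-neg), after leukocytes, endothelium and red cells had been gated out with antibodies. ATAC-seq, in which the Tn5 transposase cuts and tags open DNA, was done on 4 pairs of populations from 3 mice, with 2 of the pairs from the same mouse and, in the series' description, 1 technical replicate among them, which gave 8 libraries read on 2 lanes, or 16 runs.

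Each deposited peak had passed the authors' limits on the adjusted p and on the fold change. A peak is called opened here when it stood in the list of sites more accessible in GFP-high cells and closed when it stood in the list of sites less accessible in them. The lists held 40828 opened peaks, 50.8% of all, and 39539 closed peaks, 49.2%. The level of a peak is the authors' mean of its normalized counts over all libraries of both groups, a pooled value with no SD and no n. The depth of each library is unknown here, no library could be shown on its own, and no test was run.

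MYC, MYCN and MYCL are transcription factors that bind DNA as dimers with MAX, preferring the string CACGTG, and drive growth and biosynthesis. MXD1, MXI1 and MXD4 also dimerize with MAX and recruit SIN3 corepressors to the same sites, and MGA joins MAX in a Polycomb complex (PRC1.6). In SCLC, amplification of a MYC family gene is common, *MYCL* and *MYCN* are tied to neuroendocrine tumors, and *MYC* is tied to variants with weaker neuroendocrine features.

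The sequences below, read from the mouse genome (GRCm38, the same assembly as mm10), are those on which the description turns. The long ones show a central or start-site stretch of a peak with a high level for its gene, with capitals marking every match, on either strand, of 7 strings named further down. They are the highest closed peak of *Mycl*, which lies in an intron, the closed peak just before the *Mycn* start, the 250 bases before the *Mxd4* start, the stretch of *Mga* with both of its CACGTG strings, and the centres of the highest opened and the highest closed peak of *Myc*.
*Mycl*, closed peak, chr4:122998660-122998859, plus strand: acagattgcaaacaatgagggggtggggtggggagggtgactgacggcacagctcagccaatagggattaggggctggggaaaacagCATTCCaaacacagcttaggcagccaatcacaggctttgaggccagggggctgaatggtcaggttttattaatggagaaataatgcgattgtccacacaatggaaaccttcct
*Mycn*, closed peak, chr12:12942446-12942645, minus strand: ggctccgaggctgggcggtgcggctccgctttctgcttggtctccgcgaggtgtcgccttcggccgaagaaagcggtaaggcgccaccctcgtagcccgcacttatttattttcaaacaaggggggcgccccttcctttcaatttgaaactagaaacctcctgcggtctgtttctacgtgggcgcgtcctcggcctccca
*Mxd4*, opened peak, chr5:34187721-34187970, minus strand: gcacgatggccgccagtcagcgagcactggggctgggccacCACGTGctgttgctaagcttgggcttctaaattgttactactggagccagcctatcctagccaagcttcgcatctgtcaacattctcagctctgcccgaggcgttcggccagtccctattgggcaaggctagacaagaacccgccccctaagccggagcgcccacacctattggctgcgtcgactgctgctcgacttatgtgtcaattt
*Mga*, opened peak, chr2:119898260-119898534, plus strand: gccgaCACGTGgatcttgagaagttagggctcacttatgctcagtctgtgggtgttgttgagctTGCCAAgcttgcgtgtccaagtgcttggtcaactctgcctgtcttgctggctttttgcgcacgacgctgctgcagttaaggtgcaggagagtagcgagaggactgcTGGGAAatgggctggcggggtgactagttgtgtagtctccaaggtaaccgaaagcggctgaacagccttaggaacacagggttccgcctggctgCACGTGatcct
*Myc*, opened peak, chr15:62079488-62079687, plus strand: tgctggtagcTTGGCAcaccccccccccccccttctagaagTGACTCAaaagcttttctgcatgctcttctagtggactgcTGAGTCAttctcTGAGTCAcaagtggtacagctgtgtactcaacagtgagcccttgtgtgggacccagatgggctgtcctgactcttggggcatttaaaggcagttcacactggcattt
*Myc*, closed peak, chr15:62190417-62190616, plus strand: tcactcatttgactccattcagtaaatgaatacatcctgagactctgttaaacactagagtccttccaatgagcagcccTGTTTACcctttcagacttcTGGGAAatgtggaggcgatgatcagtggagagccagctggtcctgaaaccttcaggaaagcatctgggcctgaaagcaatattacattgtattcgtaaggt

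The short ones show CACGTG, in capitals, with 10 bases on either side, in peaks of *Mycl*, *Mycn* and *Max*. They let the sites in closed peaks of the MYC genes be read beside those in opened peaks of their partner. The flanking bases of the first *Mycl* and the second *Max* stretch run past the edge of the peak.
*Mycl*, closed peak, chr4:122985367-122985392, plus strand: gtttacgtgaCACGTGgtcaagagtt
*Mycl*, closed peak, chr4:122997170-122997195, plus strand: gtctgtctggCACGTGggtgtgttgg
*Mycn*, closed peak, chr12:12873770-12873795, plus strand: tggactgttcCACGTGatccggacct
*Mycn*, closed peak, chr12:12995350-12995375, plus strand: caggggctgtCACGTGgcagggagaa
*Max*, opened peak, chr12:76927703-76927728, plus strand: cctgccctagCACGTGtaaccggttc
*Max*, opened peak, chr12:77019232-77019257, plus strand: tagaggccagCACGTGgagagagagt

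Of the 133 peaks, 61 were opened and 72 were closed, so that 45.9% were opened, against 50.8% of all listed peaks. The genes differed among themselves. *Myc*, *Mycl* and *Mycn* together held 34 opened and 63 closed peaks (35.1% opened), whereas *Max*, *Mxd1*, *Mxi1*, *Mxd4* and *Mga* held 27 opened and 9 closed peaks (75.0% opened). *Mxi1*, with 3 opened and 5 closed peaks (37.5% opened), went against the rest of its group and lay below *Myc*, at 43.1%. The order of *Mxi1* and *Myc* turned up to 100 kb from a start, where *Myc* held 2 opened and 11 closed peaks and *Mxi1* still 3 and 5. *Mycl* and *Mycn*, without *Myc*, held 6 opened and 26 closed peaks, or 18.8% opened. The plot of peaks per gene shows that *Mycl* had closed peaks alone, that *Mga* and *Mxd1* had opened peaks alone, and that the other 5 genes had both.

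**Figure D1:**
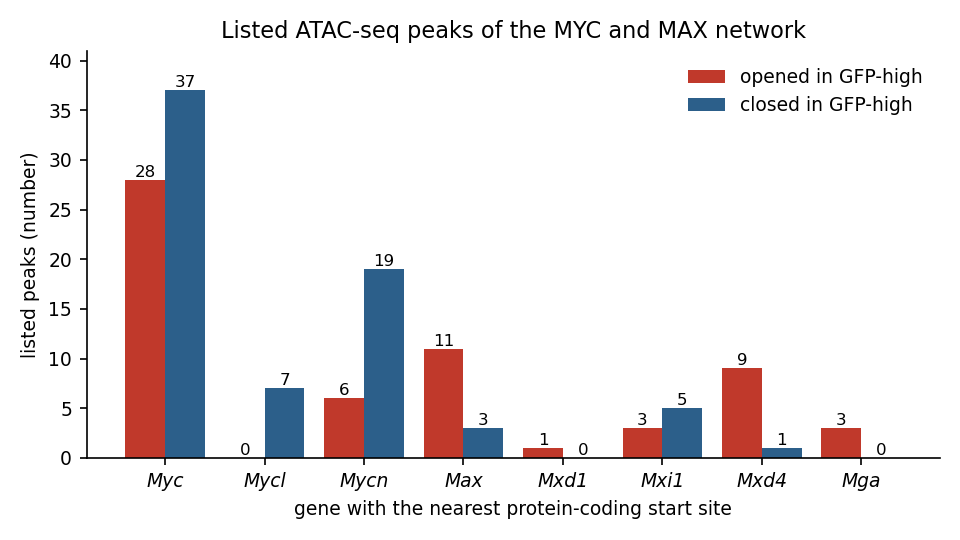
Number of listed peaks (vertical axis) of each of the 8 genes (horizontal axis), with red bars for peaks opened and blue bars for peaks closed in GFP-high cells. *Mycl* and *Mycn* held more closed than opened peaks, 7 against 0 and 19 against 6, and *Max* and *Mxd4* more opened than closed, 11 against 3 and 9 against 1, while *Mxi1* had 3 opened against 5 closed.

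The split was plainest near the genes. Up to 100 kb from a start site, the MYC family held 3 opened and 26 closed peaks (10.3% opened), and *Max*, the antagonists and *Mga* held 27 opened and 8 closed peaks (77.1% opened), beside 55.7% opened over all listed peaks at such distances. Up to 1 kb, all 5 peaks of the MYC family were closed and all 5 peaks of the others were opened. Of all listed peaks that close to a start site, 74.3% were opened. Of the 5 closed peaks, 2 were at *Myc* and counted only through the start of its short transcript *Myc-204*. A closed peak covered a start only at *Mycn*. Beyond 100 kb, 31 of the 68 MYC family peaks were opened (45.6%), above the 32.5% of all listed peaks at these distances. The others had a single peak there, which was closed. Peaks of this kind are not independent of each other, since 74.4% of neighbouring pairs of peaks on the same gene had the same direction, as did 74.8% of such pairs over all genes.

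**Figure D2:**
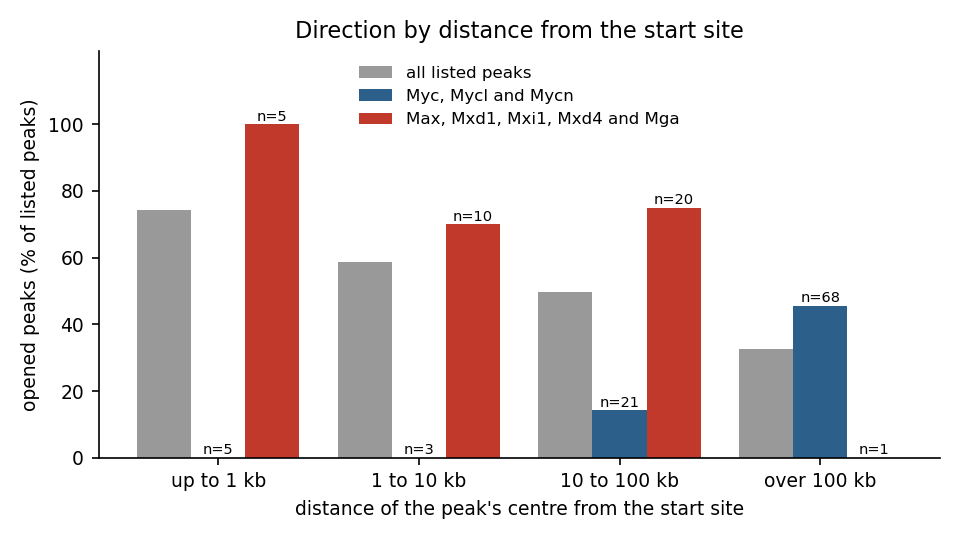
Share of listed peaks that were opened in GFP-high cells (vertical axis, percent) by distance from the start site (horizontal axis), for all listed peaks (grey), for *Myc*, *Mycl* and *Mycn* (blue) and for *Max*, *Mxd1*, *Mxi1*, *Mxd4* and *Mga* (red), with the number of peaks above each coloured bar. The blue bars stand at 0.0% up to 10 kb and at 45.6% over 100 kb, and the red bars stand at 70.0% or more up to 100 kb.

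*Mycl*, the member of the MYC family first identified in SCLC, lies on chromosome 4 (chr4:122995652-123002485, plus strand, ENSMUSG00000028654.13). Its 7 peaks were all closed and all lay within 12.2 kb of a start site, in a stretch of 27.8 kb where *Mycl* has the nearest start. This was 25.2 listed peaks per 100 kb, against 3.29 over the 7 chromosomes that carry the network. Of the 530 genes with exactly 7 listed peaks, 14.0% had closed peaks only, so such a pattern was not rare.

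The authors' mean of the *Mycl* peaks was high for closed peaks. The peak of the highest level, 2.7 kb after the start in intron 1 (chr4:122998609-122998912), had a mean of 290 normalized counts, above 99.1% of all closed peaks, and the one 1.2 kb after the start, also in intron 1, had a mean of 208. The peak nearest to a start, in exon 1 at 0.8 kb (chr4:122996812-122996977), had a mean of 71.4. Upstream, 3 peaks stood together at 10.7, 11.9 and 12.2 kb with means of 125, 148 and 23.2, and a peak past the end of the gene, 9.7 kb after the start, had a mean of 85.9. In all, 4 of the 7 peaks stood above the 90th percentile of closed peaks. Per kb of peak, the authors' mean of the intron peak at 2.7 kb was 955, which was near the 984 of the highest opened peak of the network, at *Mxd4*. The next protein-coding genes on either side, *Mfsd2a* and *Trit1*, had 2 opened and 8 closed, and 4 opened and 5 closed peaks.

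*Mycn*, the family member of the developing nervous system, lies on the minus strand of chromosome 12 (chr12:12936093-12941914, ENSMUSG00000037169.15). It had 6 opened and 19 closed peaks. Among the 652 genes with 20 or more listed peaks, 30.8% were likewise closed in at least 75% of them. Both peaks at its promoter were closed. The peak over the start itself (chr12:12941569-12942067, exon 1) had a mean of 147 normalized counts, and the peak 0.6 kb upstream (chr12:12942286-12942807) had a mean of 216, above 98.0% of closed peaks.

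The highest closed peak of *Mycn* lay 35.9 kb after the start, where the noncoding gene *4930519A11Rik* begins (chr12:12904461-12905036), with a mean of 319. It stood in a run of 9 closed peaks that reached over the promoter and on to the peak 135.3 kb upstream. The 6 opened peaks all lay downstream, from 41.7 kb to the farthest peak at 321 kb (chr12:12619545-12619763, mean 13.1). The highest of them, 129.5 kb downstream (chr12:12810952-12811247), had a mean of 190. Of the 9 *Mycn* peaks within 100 kb of a start, 8 were closed. Both within 10 kb of the gene body and with starts of noncoding genes in the assignment, 0 opened and 2 closed peaks were left. *Fam49a* and *Ddx1*, the protein-coding genes on either side, had 6 opened and 27 closed, and 3 opened and 3 closed peaks.

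*Myc* lies on chromosome 15 (chr15:61985391-61990374, plus strand, ENSMUSG00000022346.15), in a gene desert that is known to carry many distant enhancers. The stretch for which it has the nearest protein-coding start spans 1440 kb, and it held 65 listed peaks, 28 opened and 37 closed. Only 7 of the 14580 genes with a listed peak held more. The density was 4.5 peaks per 100 kb of this stretch, against 3.51 on chromosome 15 as a whole. Within 10 kb of the gene body there were 0 opened and 3 closed peaks, and with starts of every gene type 1 opened and 3 closed peaks stayed with *Myc*. A mixture was usual at such genes, as 60.5% of the 81 genes with 40 or more listed peaks had under 75% of them in either direction.

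No listed peak lay within 1 kb of the upstream start sites of *Myc*, the nearest being 1.8 to 2.3 kb away. The gene itself held 2 closed peaks, both in exon 2 of the main transcript and 289 and 611 bp after the start of a shorter transcript, *Myc-204*. The first (chr15:61987667-61987755) had a mean of 29.8 normalized counts and the other (chr15:61987968-61988098) a mean of 62.7. These were the only listed peaks within 1 kb of any annotated *Myc* start.

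The directions followed each other along the locus in runs, which were delimited after the directions were seen. Over all listed peaks, 32.5% were opened beyond 100 kb from a start and 49.6% at 10 to 100 kb. More than 200 kb upstream, 13 of 16 peaks were opened, and 12 of them made an unbroken run from 462.1 to 214.3 kb upstream. Within 200 kb upstream, all 9 peaks were closed, and with the next 3 downstream they made a run of 12 closed peaks from 185.2 kb upstream to 11.6 kb downstream, with means between 12.3 and 86.7. Within the first 60 kb downstream, 5 of 6 peaks were closed. The exception, 24.7 kb downstream, had a mean of 84.4. For *Myc* as a whole, 71.9% of the 64 neighbouring pairs had the same direction, close to the 74.8% over all genes.

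The noncoding gene *Pvt1*, which begins 50.6 kb from the *Myc* start, carried 28 of the peaks in its body, 12 opened and 16 closed. It also carried the highest opened peak of *Myc* (chr15:62079237-62079940), 92.2 kb downstream, with a mean of 324 normalized counts. The next highest, 119.3 kb downstream, had a mean of 214, and within 1 kb of these peaks begin the short noncoding genes *Gm27782* and *Gm27718*, which lie in *Pvt1*. The highest closed peak was also in *Pvt1*, 203.1 kb downstream (chr15:62190205-62190830), with a mean of 194, above 97.4% of closed peaks. Farther out, 5 closed peaks from 581.5 to 727.0 kb downstream had a maximum of 172, and the farthest peak of the network, 862.1 kb downstream (chr15:62849192-62849762), was opened with a mean of 82.7. The next protein-coding genes, *A1bg* and *Gsdmc*, had 5 opened and 10 closed, and 9 opened and 9 closed peaks.

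**Figure D3:**
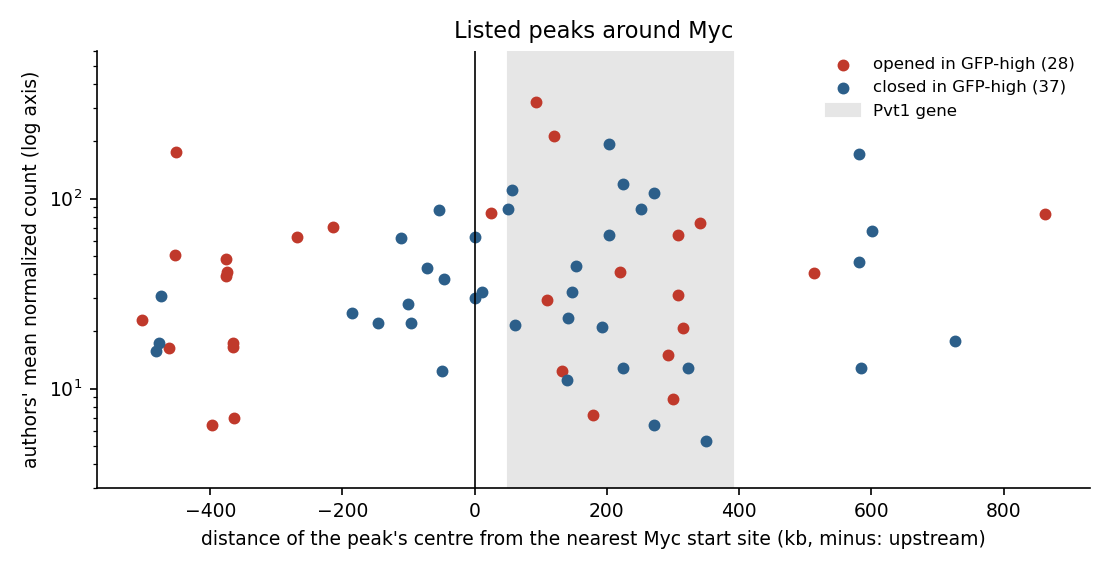
Each point is a listed peak nearest to *Myc*, by distance of its centre from the nearest *Myc* start (horizontal axis, kb) and the authors' mean normalized count (vertical log axis), red when opened and blue when closed in GFP-high cells. The 9 points within 200 kb upstream are blue, the block from 462.1 to 214.3 kb upstream is red, and the shaded *Pvt1* gene holds both colours with the highest red point at 324.

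*Max* encodes the shared partner without which none of the other factors binds its site well. It lies on the minus strand of chromosome 12 (chr12:76937269-76962201, ENSMUSG00000059436.13) and had 11 opened and 3 closed peaks. Of the 5359 genes with 5 or more listed peaks, 31.6% were opened in at least 75% of them. Within 10 kb of the gene body there were 3 opened peaks and 1 closed peak, and with starts of every gene type all of its peaks went to noncoding genes. No listed peak lay at its promoter. The nearest was 7.3 kb upstream, opened, with a mean of 47.6. The highest opened peak was 90.9 kb upstream (chr12:77052869-77053318), with a mean of 137, followed by a peak 9.8 kb upstream (chr12:76971701-76972309, mean 133) that lay just before the start of the noncoding gene *Gm35041*. The 3 closed peaks had means of 19.4 to 42.0, and the highest of them was also the farthest, 137.5 kb upstream. Another, 20.9 kb after the start and inside intron 2 of *Max*, had a mean of 32.7. The neighbours were *Fntb*, with 4 opened and 2 closed peaks, and *Fut8*, with 11 opened and 4 closed peaks.

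Among the antagonists, *Mxd4* (chr5:34173883-34187720, minus strand, ENSMUSG00000037235.13) had 9 opened peaks and 1 closed peak. Of the 5359 genes with 5 or more listed peaks, 15.9% were opened in at least 90% of them. The opened peak over its start (chr5:34187073-34188296) was the widest of the network, 1224 bp, and had the highest level, a mean of 1205 normalized counts, above 99.9% of all opened peaks. The closed peak, 37.1 kb upstream, had a mean of 27.4. Upstream peaks from 14.1 to 48.5 kb, the farthest with a mean of 10.2, lay inside the neighbouring gene *Zfyve28*. With the starts of all annotated transcripts of protein-coding genes, 5 opened peaks stayed with *Mxd4*. The other neighbour, *Haus3*, had 2 opened peaks and 1 closed peak, and *Zfyve28* itself had 0 opened peaks and 1 closed peak.

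*Mxi1* (chr19:53310518-53375810, plus strand, ENSMUSG00000025025.14) starts at several places, and its peaks differed in direction between them. The start of the transcript *Mxi1-208* lay under an opened peak (chr19:53312555-53313479) with a mean of 411, above 96.0% of opened peaks, and a second opened peak 0.8 kb into intron 1 had a mean of 114. No listed peak lay within 1 kb of the start of *Mxi1-201*, where the nearest was the opened peak with a mean of 411, at 2.5 kb. Nor did any lie so close to a group of starts farther downstream, where the nearest, at 3.2 kb, was closed with a mean of 27.7. The other opened peak, 8.0 kb before the downstream starts, had a mean of 8.31. The 5 closed peaks had means of 13.4 to 50.7, the highest 7.9 kb and the farthest 27.8 kb upstream of *Mxi1-201*. *Add3* had 7 opened and 2 closed peaks, and *Gm10197* had 1 opened peak.

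*Mxd1* (chr6:86647042-86669161, minus strand, ENSMUSG00000001156.9) had a single peak, opened, in intron 3 (chr6:86653088-86653369), 15.9 kb after the start, with a mean of 46.0, which with starts of every gene type went to another gene. Its neighbours *Asprv1* and *Snrnp27* had 5 opened peaks and 1 closed peak, and 1 opened peak.

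*Mga* (chr2:119897228-119969581, plus strand, ENSMUSG00000033943.15) had 3 peaks, all opened and all within 1.2 kb of its start. The peak over the start (chr2:119897052-119897672) had a mean of 262, the peak in intron 1 that carries both CACGTG strings (chr2:119898203-119898625) had a mean of 170, and the small peak 0.3 kb upstream had a mean of 21.5. Of the 1664 genes with exactly 3 listed peaks, 37.8% had opened peaks only. *Tyro3* had 5 opened peaks, and *Mapkbp1* had 4 opened peaks and 1 closed peak.

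**Figure D4:**
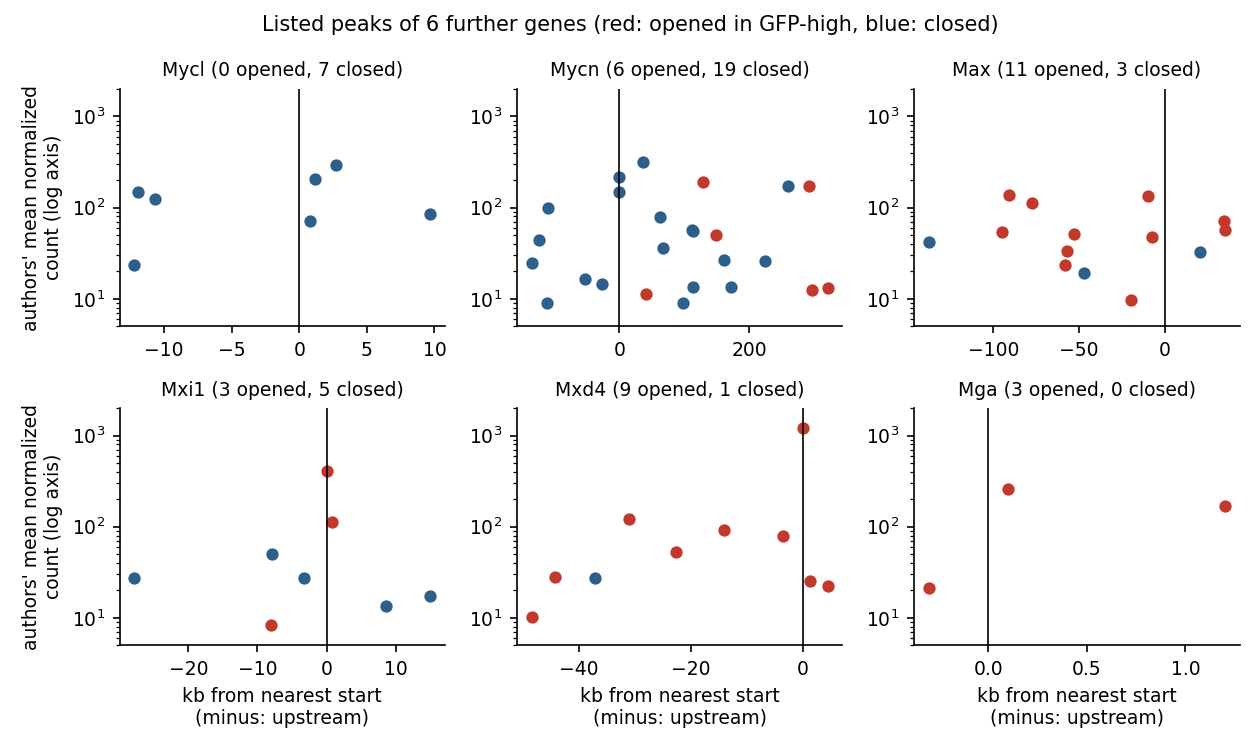
Listed peaks of 6 of the genes, by distance from the nearest start of the gene (horizontal axis, kb, minus for upstream) and the authors' mean normalized count (vertical log axis), red when opened and blue when closed in GFP-high cells. The points at the start line are blue for *Mycn* and red for *Mxi1*, *Mxd4* and *Mga*, and *Max* has none there.

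At the level of start sites, the 8 genes have 24 different annotated starts. An opened peak covered 4 of them, at *Mxi1*, *Mxd4* and *Mga*, and a closed peak covered 1, at *Mycn*. Counted by gene and within 1 kb of a start, 3 of the 8 genes (*Mxi1*, *Mxd4* and *Mga*) had an opened and no closed peak. Another 3 (*Myc*, *Mycl* and *Mycn*) had a closed and no opened one, *Myc* only through *Myc-204*, and *Max* and *Mxd1* had neither. By the same count, 25.9% of the 21840 protein-coding genes had an opened peak within 1 kb of a start and no closed one, 7.72% had a closed one and no opened one, and 65.6% had neither. In the promoter windows of RefSeq for GRCm38.p6, which run from 250 bases before to 50 after a start, 9 windows matched 7 of the 8 genes, all but *Myc*, and the *Mxd4* and *Max* windows held CACGTG, as did 7.15% of all 32851 windows.

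The median of the authors' mean was 47.6 for its opened and 32.3 for its closed peaks, against 40.7 and 25.8 over all listed peaks. Of its opened peaks, 4 of 61 stood above the 90th percentile of all opened peaks, and of its closed peaks, 14 of 72 stood above that of all closed peaks. The peaks lay far from start sites, with 50.8% of the opened and 52.8% of the closed ones beyond 100 kb, against 13.5% and 28.9% of all listed peaks. *Myc* and *Mycn* supplied 68 of these 69 distant peaks.

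CACGTG, the MYC and MAX site, was present in 15 of the 133 peaks, in 16 copies. It was in 6 of 61 opened peaks (9.84%, 95% Wilson interval 4.59 to 19.8) and in 9 of 72 closed peaks (12.5%, 6.72 to 22.1), against 7.56% of all opened and 5.65% of all closed peaks. In the central 200 bp alone, the shares were 3.28% (0.904 to 11.2) and 6.94% (3.00 to 15.2), against 4.08% and 3.95%, so that the interval of the closed peaks included the share of all closed peaks. The closed peaks of the network were wider than all closed peaks, with a median of 276 against 248 bp. Under the other choices of peaks tried, the share of closed peaks with the string in that window ran from 3.77% to 13.3%. The lowest was of 53 peaks with a mean of at least 20 normalized counts. The highest was of only 15 peaks, within 10 kb of the gene bodies. Of the 9 closed peaks, 8 were at *Myc* (4), *Mycl* (2) or *Mycn* (2), and the other was at *Mxi1*. The MYC family held 63 of the 72 closed peaks, so this was about its share. The 6 opened peaks were at *Myc* (2), *Max* (2), *Mxd4* (1) and *Mga* (1). The *Mga* peak was the only member with 2 copies, and 0.654% of all opened peaks had at least 2.

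The further strings searched on both strands were GGAATG (TEAD), GTAAACA (forkhead), TGANTCA (AP-1), TGGGAA (RBPJ, the Notch effector), TTGGCA (an NFI site in part) and CACTTGA (NKX2). A match describes the letters and says nothing of binding. The TEAD string was in 18 of 61 opened peaks (29.5%, interval 19.6 to 41.9) and in 5 of 72 closed peaks (6.94%, 3.00 to 15.2), against 25.4% and 12.0% of all listed peaks. At *Myc*, 11 of 28 opened and 2 of 37 closed peaks held it, and at *Max* 4 of 11 opened and 0 of 3 closed peaks. *Mxd4* had it in 3 of 9 opened peaks, *Mycn* in 0 of 6 opened and 2 of 19 closed peaks, *Mycl* in 1 of 7 closed peaks, and *Mxi1* and *Mga* in none of their 3 opened peaks each. The RBPJ string was in 34.4% of the network's opened peaks and 18.1% of its closed ones, against 30.6% and 21.5%, and the AP-1 string in 19.7% and 29.2%, against 15.1% and 29.9%. The highest opened peak of *Myc*, 704 bp wide against a median of 300 bp for all opened peaks, held 3 copies of the AP-1 string. At least 3 copies were in 0.181% of all opened and 0.635% of all closed peaks. The intervals of the forkhead, NFI and NKX2 shares included the shares of all listed peaks in both directions.

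**Figure D5:**
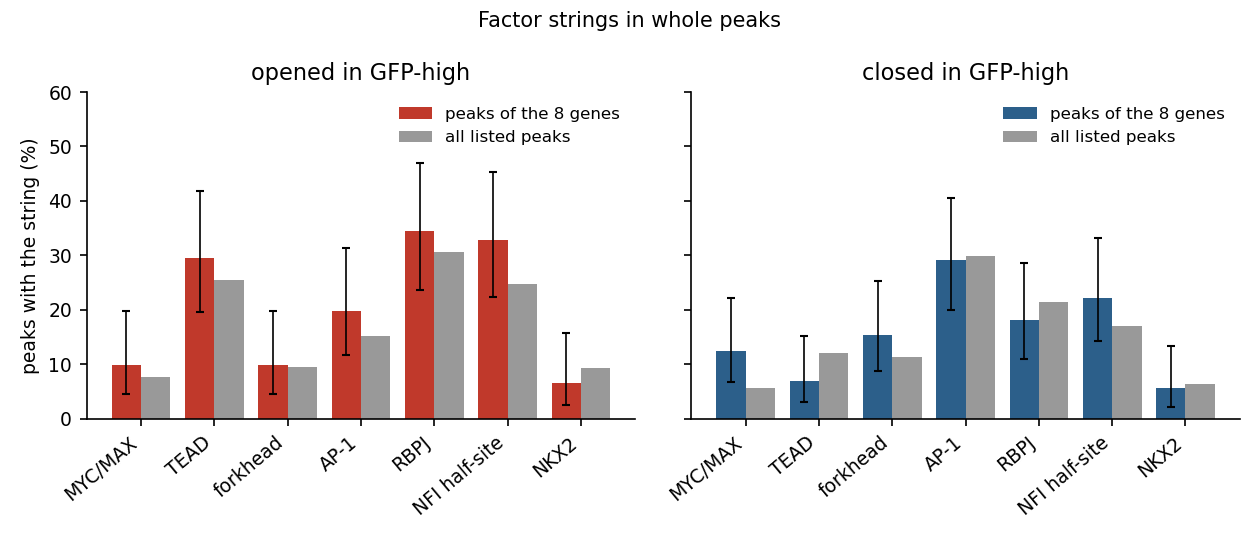
Share of peaks that hold a factor's string anywhere in the peak (vertical axis, percent), for opened (left) and closed peaks (right), with coloured bars for the 8 genes, 95% Wilson intervals on them, and grey bars for all listed peaks. The interval of the closed peaks for MYC/MAX, 6.72% to 22.1%, lies above the 5.65% of all closed peaks. It does not in the central 200 bp (3.00% to 15.2% against 3.95%). The other intervals include the grey bars. Intervals are shown for 7 strings in both directions, with no correction for their number.

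Other genes of the pathway were counted from lists, to be read beside the 50.8% of all listed peaks that were opened and the 25.9% of protein-coding genes with opened promoter peaks only. Of the 5 further partners of MAX or MLX (*Mxd3*, *Mnt*, *Mlx*, *Mlxip* and *Mlxipl*), all 5 had an opened promoter peak, and together they held 16 opened and 2 closed peaks (88.9% opened). *Mnt*, a repressor that competes with MYC for MAX, held the most, 8 opened peaks and 1 closed peak, 2 of them opened at its promoter. The 14 genes for MYC partners and regulators of its stability held 53 opened and 28 closed peaks (65.4% opened), and 8 of them had an opened promoter peak. *Fbxw7* and *Trrap* had a closed promoter peak, *Trrap* beside an opened one. *Fbxw7*, whose product marks MYC for degradation, had 10 opened and 16 closed peaks, and *Pim1*, a kinase that stabilizes MYC, had 15 opened peaks and 1 closed peak. The 5 corepressor genes of MXD proteins held 8 opened and 6 closed peaks (57.1% opened, 3 genes with an opened promoter peak), with *Sin3a* at 4 opened and *Hdac2* at 4 closed. The 9 genes of the MGA complex held 30 opened and 36 closed peaks (45.5% opened, 6 genes with an opened promoter peak), of which *Rybp* had 23 opened and 21 closed ones. *Yaf2*, also of this list, had a closed promoter peak. The 14 genes that MYC is known to activate held 16 opened and 22 closed peaks (42.1% opened, 4 genes with an opened promoter peak), and *Odc1*, the enzyme that starts polyamine synthesis, had 1 opened and 7 closed ones.

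The labelled cell types were checked against markers, beside the same 50.8% opened over all listed peaks and the 7.72% of genes with closed promoter peaks only. The 8 neuroendocrine genes held 11 opened and 60 closed peaks (15.5% opened), with a closed promoter peak at 7 of them. *Insm1* alone held 28 of the closed peaks. *Chga* went the other way, with 8 opened and 6 closed peaks, and *Syp* had no listed peak. The 6 club cell genes held 55 opened and 19 closed peaks, but 26 and 11 of these were at *Hes1*, whose locus drives the GFP used in the sort and which is no check of the labels. The other 5 held 29 opened and 8 closed peaks (78.4% opened). Markers of cells that the sort was meant to remove also held listed peaks, 15 opened and 8 closed (65.2% opened) for 8 leukocyte genes and 16 opened and 48 closed (25.0% opened) for 6 endothelial genes, and 6 fibroblast genes held 10 opened and 13 closed peaks (43.5% opened). Their part in the peaks of the network was not tested. In such bulk data, a change in the share of a cell type and a change within its cells cannot be told apart.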

How the data were processed

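The authors trimmed adaptors, aligned the ATAC-seq reads to mm10 with Bowtie2 2.3.4.1, removed duplicates, called narrow peaks with MACS2 using reads shifted around the Tn5 cut, and counted reads in the peaks merged over samples. The authors tested GFP-high against GFP-neg cells with DESeq2 1.28.1 and deposited the opened and the closed peaks that passed their limits. The deposited signal of a peak is the mean of its normalized counts over the libraries. The deposited fold changes, their errors, test statistics and p-values are the authors' own comparison and were not used. How lanes, pairs and the technical replicate were treated is not given in the sources used here. Peaks outside the lists were not analysed here, so a share never refers to all accessible sites, and the precision of a share is its Wilson interval at 95%, which covers counting error only.

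Positions are 1-based on mm10. Starts, exons and introns came from GENCODE vM21 basic. Computations were done in Python 3.11.15 with pandas 2.3.3, scipy 1.17.1 and matplotlib 3.10.9, and peak assignment and string search were tested on simulated data. A promoter peak of a gene is centred within 1 kb of a start of that gene. The peaks named are, for each gene, those at its promoter, the nearest, the highest opened and closed, and the farthest, and each list is illustrated by the genes with the most peaks. The runs at *Myc* and single further peaks were chosen after seeing their values. The members and lists were chosen with earlier results of these data known. Alternatives were other distances, annotations and gene assignments, merging of peaks, a minimum level and the peak centre against the whole peak.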

Additional observations from a re-analysis of the deposited data

How the results depend on the processing

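The number of peaks depended on how a peak was given to a gene. Up to 100 kb from a start, the network had 30 opened and 34 closed peaks. Within 10 kb of a gene body it had 19 opened and 15 closed, and the opened share was 55.9% in place of 45.9%. With starts of every gene type, noncoding genes took most peaks, and 10 opened and 15 closed were left, with 5 opened and 5 closed peaks within 1 kb of the start of any gene, noncoding ones included, in place of 8 and 10, and with a CACGTG string in the central 200 bp of 0.0% of the opened ones. Within 3 kb of the start of any gene there were 13 opened and 16 closed peaks. The opened share stayed lower in the MYC family than in *Max*, the antagonists and *Mga* throughout, at 0.0% to 35.5% against 72.7% to 80.0%. This held under every assignment tried, with peaks merged and with a minimum level. The other 43 values of the whole network under an alternative stayed within their interval or within 1.5 times, as did 71 counts of single genes, while 25 such counts moved by more. A stricter threshold of the authors' test was not run, since their p-values were not used. Leaving out a replicate was not possible, because each peak has 1 pooled value. No paired analysis was possible because the lists hold no value per library.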
